A study of Homo sapiens with 16 samples.

Results

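Open chromatin was compared between senescent fibroblasts depleted of FOXF1 and FOXF2 and proliferating fibroblasts of the same line. Peak lists from 4 of the 16 ATAC-seq libraries of the series made up the comparison, 2 of senescent cells that received siFOXF1/2 and 2 of proliferating cells (Pro), all sequenced as 35 bp pairs. Overlapping peaks of these 4 lists on chromosomes 1 to 22 were merged, which gave 122322 regions. The same merge over all 10 paired-end lists of the series gave 149504.

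All cells were IMR-90 ER:Ras, a derivative of human lung fibroblasts. They carry a Ras oncoprotein fused to an oestrogen receptor and switched on by 4-hydroxytamoxifen (4-OHT). The siFOXF1/2 cells received 100 nM 4-OHT for 6 days, and the Pro cells received a control siRNA and no 4-OHT. The comparison therefore changes 2 things at once, the senescence-inducing drug and the FOXF1/2 siRNA, and their parts cannot be told apart from these 4 libraries. Another 4 paired-end libraries of senescent cells with the control siRNA and the same 4-OHT treatment (Sen) stand between the 2 groups and are given beside them. Paired-end libraries with sicJUN/JUNB/JUND (JUN-family knockdown, n = 2) and single-end libraries of 75 bp reads with control siRNA, sip300/CBP or sip65 (n = 2 each), all with the same 4-OHT treatment, were used only to look up regions. The titles of the JUN-family libraries name cJUN and JUND, and only their treatment label names JUNB as well. The titles of the Pro libraries say proliferating, whereas their cell type field reads as for the senescent ones. Peak lists cannot show how far FOXF1/2 were depleted, and the fibroblast identity was not checked against marker genes because no annotation of the files' build (hg19) was used here. Nothing in the labels says that replicates came from separate cultures, so the spread between them may be technical.

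FOXF1 and FOXF2 are forkhead transcription factors of mesenchymal cells, expressed in lung fibroblasts and known for their part in the development of lung and gut mesenchyme. Oncogene-induced senescence is a lasting arrest of the cell cycle in which new enhancers open and genes of the senescence-associated secretory phenotype are switched on. AP-1 factors of the JUN family are known to bind many of these enhancers. The acetyltransferases p300 and CBP mark active enhancers, and p65 is the NF-kB subunit behind much of the secretory programme.

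The siFOXF1/2 lists were the longer ones. On chromosomes 1 to 22 they held 105828 and 100125 peaks, against 63860 and 64904 in Pro, and the groups did not overlap. The means were 102976 ± 4033 (SD, n = 2) and 64382 ± 738 (SD, n = 2), a ratio of 1.60. A two-sided exact permutation test gave p = 0.333, the smallest p that 2 libraries against 2 allow. Peaks covered 58.5 and 53.2 Mb in siFOXF1/2 and 28.9 and 31.9 Mb in Pro. The 4 Sen lists held 96512 to 100656 peaks, a range that overlaps that of the siFOXF1/2 lists, and the JUN-family knockdown lists held 61426 and 58955.

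**Figure D1:**
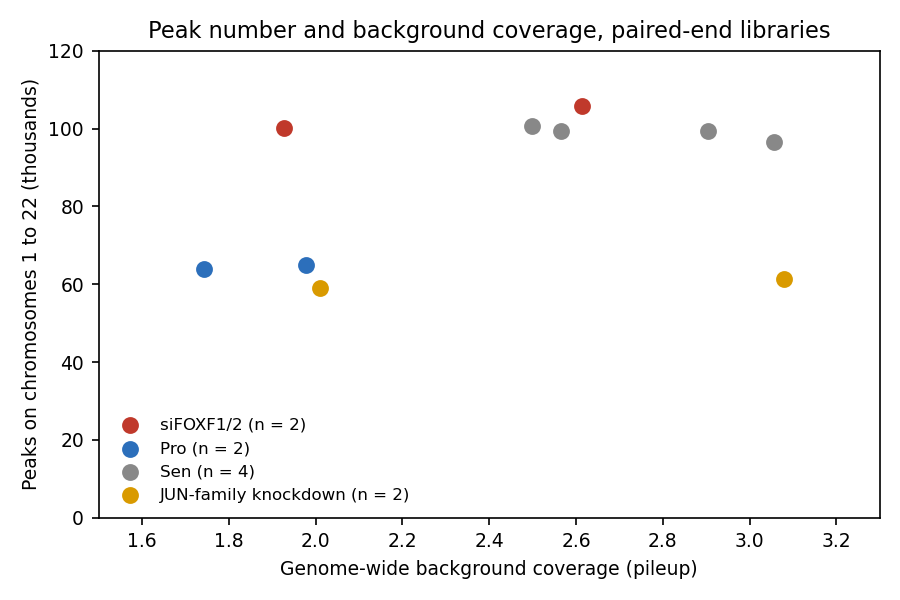
Number of listed peaks on chromosomes 1 to 22 (vertical axis) against genome-wide background coverage (horizontal axis, in pileup, the 1st percentile of the local background of its peaks) for the 10 paired-end libraries, 1 point each. The siFOXF1/2 libraries lie at 105828 and 100125 peaks and the Pro libraries at 63860 and 64904, while siFOXF1/2 replicate 2 and Pro replicate 2 have nearly the same background.

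The lists give no read totals, so depth was read from the genome-wide background coverage that each list implies, in stacked reads or fragments (pileup). It was 2.61 and 1.93 in siFOXF1/2 against 1.74 and 1.98 in Pro, and 2.50 to 3.06 in Sen. A peak had to stand 4.97 and 5.71 times above background to be listed in siFOXF1/2, and 6.31 and 6.07 times in Pro. Background coverage overlapped between the groups. The pair of libraries with nearly equal background, siFOXF1/2 replicate 2 and Pro replicate 2, held 100125 and 64904 peaks. Lists of 1 group covered much the same base pairs, with a Jaccard index (shared over total covered base pairs) of 0.719 in siFOXF1/2 and 0.736 in Pro. Across the groups the index was 0.423 to 0.482. The Pro lists covered far fewer base pairs, 28.9 and 31.9 Mb against 58.5 and 53.2 Mb, which by itself caps this index. Its lower value therefore does not show that the groups covered different places.

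Far more regions gained a peak than lost one. A region was called opened when both siFOXF1/2 lists and neither Pro list held a peak, closed when both Pro lists and neither siFOXF1/2 list did, and kept when no list lacked one. Opened regions numbered 31035, which is 25.4% of the 122322 regions, and closed regions numbered 3669, or 3.00%. Another 50120 regions (41.0%) were kept, and 37498 (30.7%) were mixed. Of the mixed regions 20982 had a peak in 1 siFOXF1/2 list only, 8284 in both siFOXF1/2 lists and 1 Pro list, and 3744 in 1 Pro list only. Opened regions made up 34.7% of the 89439 regions in both siFOXF1/2 lists, and closed regions made up 6.51% of the 56334 regions in both Pro lists.

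Opened regions outnumbered closed ones in each setting run. Between siFOXF1/2 replicate 2 and Pro replicate 2 alone, the pair of nearly equal background, 43182 regions were opened, 7711 closed and 56653 kept. Leaving out a library loosens each of these rules by itself. When each list was cut to its strongest 63860 peaks, 11390 regions were opened, 10751 closed and 40763 kept. Lists of equal length bring gains and losses near each other by construction. The opened and closed counts of this setting therefore say nothing on the surplus. Without Pro replicate 1 the closed count was 5919.

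A peak that is absent from a list may have lain just under its limit. For each opened region, the lowest siFOXF1/2 value was therefore divided by the highest value that the Pro lists could have hidden, and the quotient is called the fold bound (for closed regions with the groups exchanged). In all, 15875 opened regions (13.0% of all regions) and 2049 closed regions (1.68%) had a bound of at least 2-fold. Scaling the libraries to equal medians over the kept regions, in place of equal background, gave 10593 and 2830. Opened regions outnumbered closed ones under both scalings, and the remaining opened regions may differ from Pro by less than 2-fold. The bound leaves out the minimum length that a peak must reach and takes the local background of the missing library to be that of the libraries that hold the peak.

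Opened regions were shorter and weaker than kept ones. Their median length was 436 bp, against 699 bp for kept and 298 bp for closed regions, and they covered 14.8 Mb against 39.3 and 1.33 Mb. A kept region merges peaks of both groups, and an opened one those of siFOXF1/2 only. Longer regions also meet a Pro peak more easily, so the rule by itself favours longer kept regions. The strength of a region is given here as its highest summit pileup over the genome-wide background of the library. The lower of the 2 siFOXF1/2 values had a median of 17.2 at opened and 41.0 at kept regions, and 1617 opened regions (5.21%) lay above the kept median. For closed regions the lower of the 2 Pro values had a median of 16.1. Absence from the Pro lists by itself favours weak regions, and taking the highest summit in a region favours long ones. How far these rules account for the differences in length and strength was not tested. When the 89439 regions in both siFOXF1/2 lists were ranked by peak q-value into 10 classes of nearly equal size (deciles), opened regions made up 69.8% of the weakest decile and 0.962% of the strongest, of which 98.4% were kept. The chromatin most open in FOXF1/2-depleted senescent cells was thus nearly always listed in proliferating cells too.

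The strongest opened regions stood well clear of what Pro could have hidden. They were ranked by siFOXF1/2 q-values, and the closed ones below by Pro q-values, which by itself favours high fold bounds. The region with the best q-value was chr1:145042509-145043268 (hg19), with a summit 175 and 172 times the background in the 2 siFOXF1/2 libraries and a fold bound of 5.18 against Pro. The Sen libraries held it at 65.1 to 110, below both siFOXF1/2 libraries, and neither JUN-family knockdown list held it.

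The second opened region, chr6:167324074-167324818, separated siFOXF1/2 from Sen most among the leading 8. Its summit stood at 93.4 and 97.1 times the background in siFOXF1/2, at 12.1 to 19.6 in the 4 Sen libraries, and was unlisted in Pro and in JUN-family knockdown, with a bound of 6.02 against Pro. At chr7:26949726-26950338 the values were 79.6 and 82.0 in siFOXF1/2, 59.2 to 64.3 in Sen and 16.6 and 19.9 in JUN-family knockdown, with a bound of 6.60. This was the highest bound among the 8, and here all senescent libraries held a peak.

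The other 5 leading opened regions were chr6:14596606-14597237, chr2:53672427-53673128, chr4:153617973-153618583, chr13:110597915-110598405 and chr2:11411000-11411464. Their lower siFOXF1/2 values ran from 62.7 to 93.7 and their bounds from 4.97 to 6.11. Each of the 8 leading regions had a peak in all 4 Sen lists, and in each the Sen libraries lay below both siFOXF1/2 libraries, whose values chose these regions. Both JUN-family knockdown lists held 4 of the 8, and neither list held 3. Which genes these regions lie in or near was not determined, because no hg19 annotation was used here, and for the same reason no sequence is shown.

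**Figure D2:**
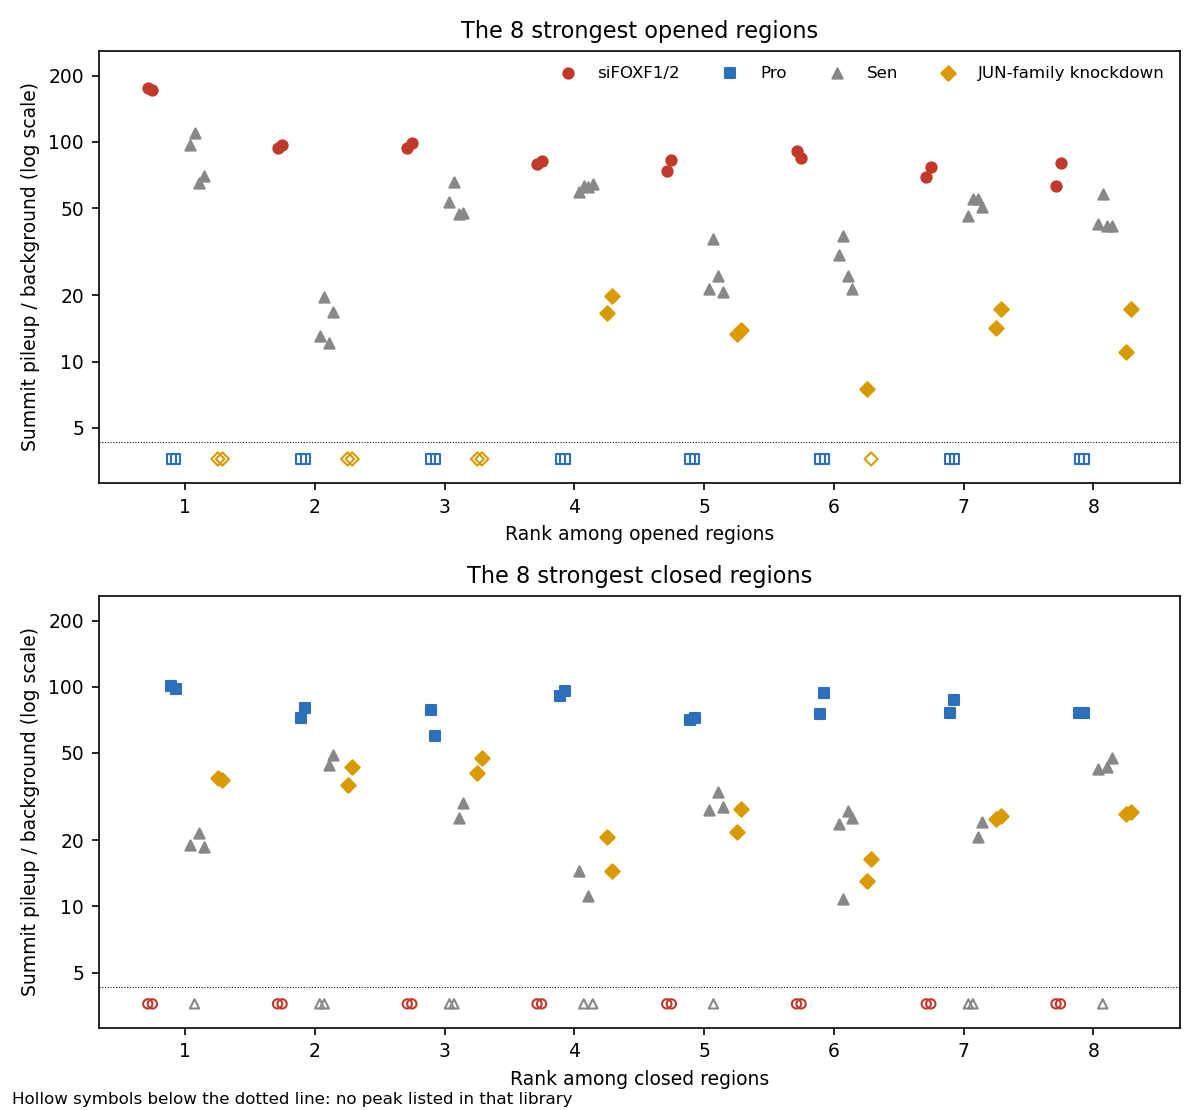
Summit pileup over genome-wide background (log axis) in each of the 10 paired-end libraries at the 8 opened (top) and 8 closed (bottom) regions with the best q-values, 1 symbol per library; hollow symbols under the dotted line mark libraries without a listed peak. Sen values lie below both siFOXF1/2 values at each opened region, and both JUN-family knockdown libraries have a peak at each closed region.

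The strongest closed region, chr6:88288076-88288801, stood at 101 and 98.1 times the background in Pro, with a fold bound of 8.21 against siFOXF1/2. In Sen it was listed at 18.7 to 21.6 in 3 libraries and missing from replicate 2, and in JUN-family knockdown it was 38.3 and 37.8. At chr21:15457042-15457433 the Pro values were 72.3 and 79.9, with a bound of 9.29. Sen replicates 3 and 4 held it at 44.2 and 49.1 and replicates 1 and 2 lacked it, and JUN-family knockdown held it at 35.7 and 43.3. Both regions were thus listed in senescent cells with FOXF1/2 present, by 3 and by 2 of the 4 Sen libraries.

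The other 6 leading closed regions were chr3:29274677-29274940, chr3:123351022-123351563, chr8:134124314-134124822, chr2:42133492-42134018, chr7:28145988-28146540 and chr1:33856116-33856533, with bounds of 4.90 to 7.18. Both JUN-family knockdown lists held all 8 leading closed regions. All 4 Sen lists held 1 of them, and none of the 8 lacked a peak in every Sen list. Sen replicate 3 held all 8, replicate 4 held 7, replicate 1 held 5 and replicate 2 held 1, so the JUN-family lists stood with Sen replicates 3 and 4 here. All 16 leading regions remained in their class when the q-value limit, the list lengths, the required overlap or the libraries were changed in the settings run. Their choice largely fixed this outcome. Each had a −log10 q of at least 100 in both libraries of its group, far above the limits set, and leaving out a library loosens the rule.

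Sen libraries, which the rule did not use, show how much of the opened chromatin is also listed in senescent cells with FOXF1/2 present. Of the 31035 opened regions 12177 (39.2%) had a peak in all 4 Sen lists, 11229 (36.2%) in 1 to 3 of them and 7629 (24.6%) in none. Over all 122322 regions the shares were 57.8% for all 4 lists and 19.5% for none. Kept regions had a peak in all 4 Sen lists in 92.6% of cases and in none in 1.07%, and closed regions in 23.2% and 37.2%. Each Sen library alone listed 61.3%, 63.0%, 53.7% and 52.3% of the opened regions, in the order of replicates 1 to 4. Replicates 1 and 2 lay above replicates 3 and 4, and with either pair alone the share held by both of its lists was 53.7% and 45.2%. The share in no Sen list was 29.4% and 39.2% with these pairs, 13.6% among peaks with a −log10 q of at least 20 and 13.5% with equal list lengths, so it depends on these settings and on the Sen libraries used.

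Part of the gap between opened and kept regions went with peak strength. The share of opened regions held by all 4 Sen lists ran from 20% in the weakest decile of siFOXF1/2 strength to 94.2% in the strongest, and that of kept regions from 59.2% to 99.9%. Opened regions lay below kept regions in every decile. In the strongest decile, which held only 86 opened regions, 0 lacked a peak in every Sen list, whereas in the weakest decile 38.1% did.

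**Figure D3:**
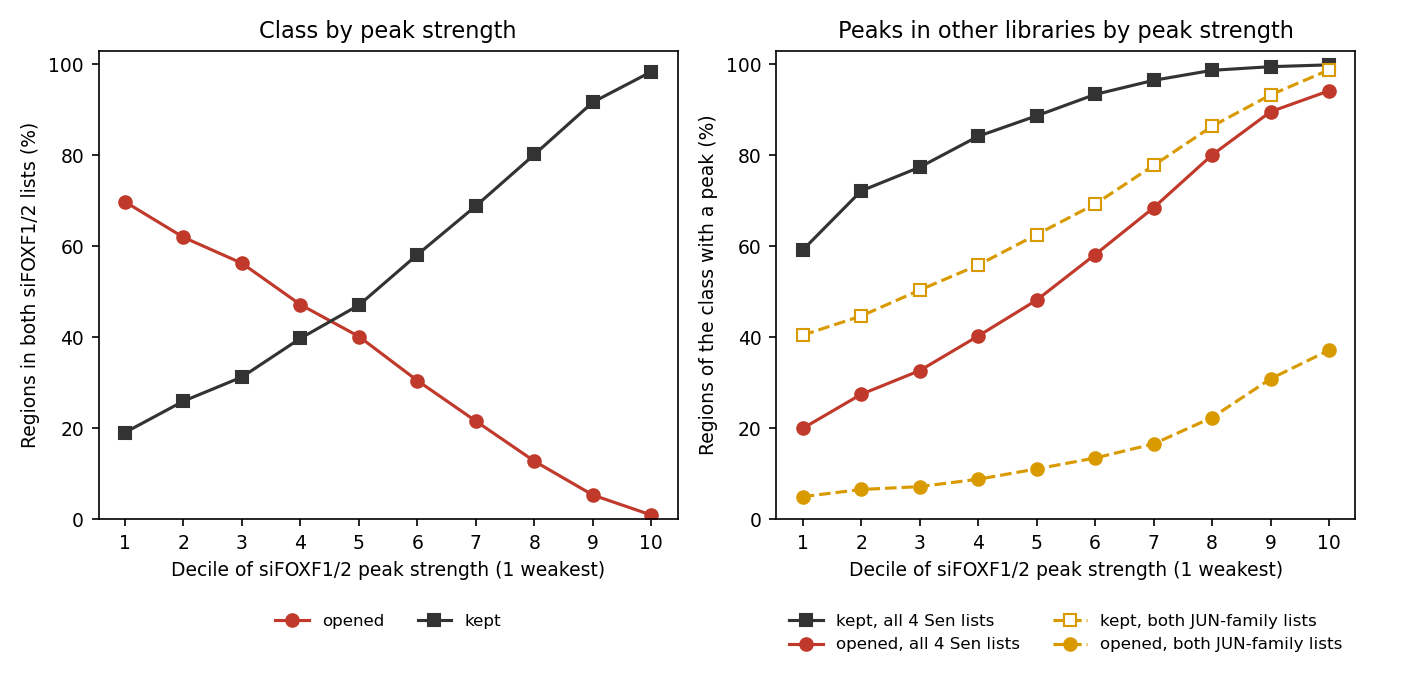
Left, percentage of the regions in both siFOXF1/2 lists that were opened or kept, by decile of peak strength (lower −log10 q of the 2 lists, 1 weakest). Right, percentage of opened and kept regions with a peak in all 4 Sen lists or in both JUN-family knockdown lists, by the same deciles; opened regions lie below kept regions throughout, and in the strongest decile the shares for Sen are 94.2% and 99.9% and those for JUN-family knockdown 37.2% and 98.8%.

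At opened regions that all 4 Sen lists held, siFOXF1/2 and Sen stood at similar levels. This choice leaves out opened regions missing from any Sen list, and so low Sen values. By itself it draws the levels together. At the 12177 opened regions in all 4 Sen lists, the median summit was 23.7 and 26.0 times the background in siFOXF1/2 and 20.3, 24.4, 17.3 and 17.5 in Sen. Sen replicate 2 fell between the 2 siFOXF1/2 libraries and the other 3 below them. At 323 of these regions (2.65%) both siFOXF1/2 values were at least 2-fold above all 4 Sen values, and at 61 (0.501%) at least 2-fold below. Over all 64158 regions in the 6 lists these shares were 1.47% (944 regions) and 0.302% (194 regions). The direction rests on the scaling: with libraries scaled to equal medians over these regions, which removed a median shift of 0.27 (log2) towards siFOXF1/2, 377 regions were above and 624 below, and of the opened ones 144 and 166. Over all 64158 regions, 1887 were above without Sen replicate 2 and 1786 without siFOXF1/2 replicate 2, and 1351 were below without siFOXF1/2 replicate 2 and 472 without replicate 1.

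Opened regions that no Sen list held were the weaker ones. Their median summit was 16.1 and 15.1 times the background in siFOXF1/2, and 2825 of the 7629 (37.0%) had a bound of at least 2-fold against Pro and Sen together. The leading one, chr10:106006474-106007234, stood at 73.1 and 62.3 times the background in siFOXF1/2, with a bound of 4.93 against Pro, and no other library of the series listed it. The second, chr19:33935622-33936205, stood at 67.0 and 63.9, and both JUN-family knockdown lists held it at 12.3 and 11.9. So at least 1 of the regions absent from control senescent cells was listed, at a far lower level, with another siRNA.

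Another 3 regions followed. At chr6:75858832-75859651 the siFOXF1/2 values were 59.3 and 57.1, and of the single-end lists both sip300/CBP lists held a peak. At chr9:3578890-3579121 they were 38.3 and 41.5, and both single-end Sen and both sip300/CBP lists held a peak, so this region was listed in control senescent cells by the other sequencing layout. At chr2:219610530-219610928 they were 54.7 and 52.4, and no other list held it.

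JUN-family knockdown libraries listed few of the opened regions. They held 13.7% and 13.1% of them singly and 9.45% (2934 regions) in both lists, against 77.2% of kept and 35.8% of closed regions and 39.2% of all regions. Opened regions in all 4 Sen lists were held by both JUN-family lists in 17.4% of cases, and those in no Sen list in 2.82%. In the strongest decile of siFOXF1/2 strength the share was 37.2% for opened and 98.8% for kept regions, and in the weakest 5.01% and 40.5%. Opened regions therefore lay below kept regions of like strength in each decile, while the kept regions were chosen for a peak in Pro and the opened ones for its absence. Background coverage in the JUN-family libraries, 3.08 and 2.01, was not below that of Pro. Their summits were lower at kept regions: at those they held, the median was 20.8 and 25.4 times the background, against 35.5 to 41.6 in Sen and 36.7 and 36.9 in Pro. The part of this lower signal in the share of opened regions was not tested.

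**Figure D4:**
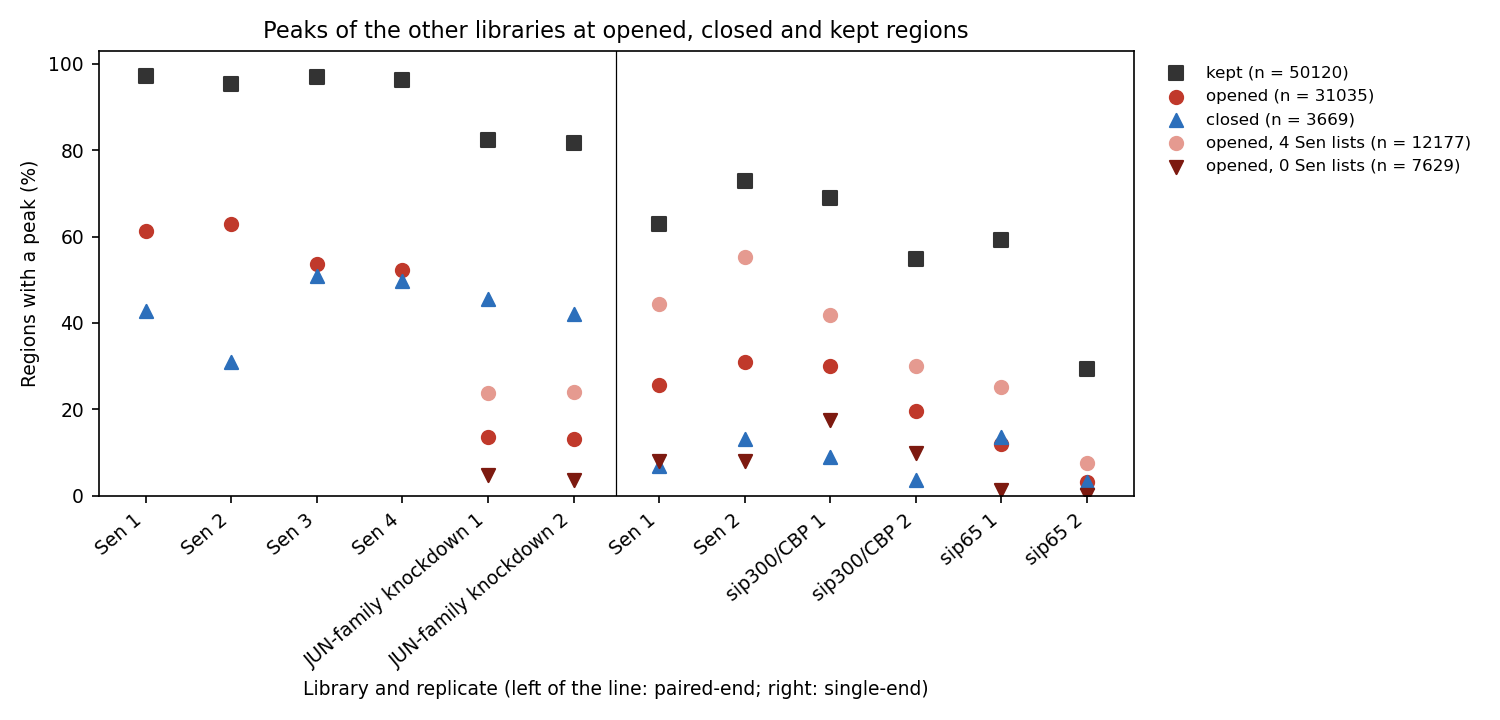
Percentage of kept, opened and closed regions with a peak in each library outside the comparison (paired-end left of the line, single-end right), with the opened regions in all 4 or in 0 paired-end Sen lists shown apart where the library did not define them. JUN-family knockdown listed 13.7% and 13.1% of opened but 82.3% and 81.7% of kept regions.

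The same rule applied to each other senescent group against the same 2 Pro libraries shows where siFOXF1/2 stands, although these comparisons share their controls. Sen replicates 1 and 2 gave 29221 opened and 3628 closed among 118588 regions, and Sen replicates 3 and 4 gave 26611 and 3087 among 113062. The siFOXF1/2 libraries gave 31035 and 3669 among 122322. Their counts were somewhat higher for both classes, but over the largest number of merged regions. As a share of merged regions, opened ones were slightly more frequent in siFOXF1/2 than in either Sen pair. The share of closed regions lay between those of the Sen pairs. JUN-family knockdown gave 6943 opened and 9491 closed among 85204, the only group of these in which closed regions were the more numerous. Mean background coverage was 2.27 in siFOXF1/2, 2.70 and 2.81 in the Sen pairs and 2.55 in JUN-family knockdown.

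Single-end libraries, which share no library with the paired-end ones, listed the opened regions to unequal extents. The 2 control Sen lists held 25.7% and 31.0% of them, the sip300/CBP lists 30.1% and 19.5%, and the sip65 lists 12.1% and 3.22%. Because these lists ranged from 17707 to 69760 peaks, each share was divided by the library's own share of kept regions, which ran from 29.2% to 72.7%. This does not fully remove list length, since opened regions were weaker than kept ones and a shorter list can lose more of them. The ratio was 0.204 and 0.110 in sip65 replicates 1 and 2, from 43377 and 17707 peaks. In sip300/CBP replicate 2, with 45808 peaks, it was 0.356. The part of list length in these ratios was not tested. The mean ratio was 0.417 in Sen, 0.396 in sip300/CBP and 0.157 in sip65. The sip65 libraries lay below both Sen libraries, with an exact two-sided permutation p of 0.333, the smallest possible, and the sip300/CBP libraries overlapped Sen, with an exact permutation p of 1.

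At the opened regions in all 4 paired-end Sen lists, the single-end shares were 44.4% and 55.2% in Sen, 41.7% and 30.1% in sip300/CBP, and 25.2% and 7.46% in sip65. At those in no paired-end Sen list they were 7.97% and 8.07% in Sen, 17.5% and 9.96% in sip300/CBP, and 1.26% and 0.184% in sip65. Relative to kept regions the latter gave mean ratios of 0.119, 0.218 and 0.0138 for Sen, sip300/CBP and sip65. Both sets were chosen by peaks in control senescent cells, the first for their presence and the second for their absence, which favours single-end Sen in the first set and disfavours it in the second. The order of the groups in either set is therefore a description, with no test.

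Closed regions were held by the Sen libraries at 42.8%, 31.0%, 51.0% and 49.8%, replicate 2 again the lowest, and by the JUN-family knockdown libraries at 45.6% and 42.0%. Both JUN-family lists held 28.1% of the closed regions that no Sen list held and 36.9% of those in all 4. At opened regions the corresponding shares were 2.82% and 17.4%, so both JUN-family lists held a larger share of the closed than of the opened regions whether Sen listed them or not. Of the single-end lists, Sen held 6.81% and 13.0% of the closed regions, sip300/CBP 9.02% and 3.62%, and sip65 13.7% and 3.08%. At closed regions in all 4 paired-end Sen lists the shares were 14.2% and 28.5% in Sen, 8.09% and 4.34% in sip300/CBP, and 30.5% and 7.97% in sip65. Relative to kept regions the mean ratios there were 0.309, 0.0982 and 0.394, for Sen, sip300/CBP and sip65, given without a test because Sen peaks chose the set. The mean of sip65 lay above that of Sen there, while the libraries of the 2 groups overlapped.

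Kept regions differed by degree. The median summit over the 50120 kept regions was 43.6 and 44.6 times the background in siFOXF1/2 and 36.7 and 36.9 in Pro. Each siFOXF1/2 value was at least 2-fold above both Pro values at 3347 kept regions (6.68%, called raised), and at least 2-fold below at 822 (1.64%, called lowered). The split depends on the scaling: with medians over kept regions set equal, 1729 were raised and 1645 lowered, so the share raised among both was 80.3% under the first scaling and 51.2% under the second. The median difference over kept regions was 0.07 and -0.19 (log2), respectively. Without Pro replicate 1 or 2 the raised count was 5833 or 5392, and without siFOXF1/2 replicate 1 or 2 the lowered count was 1327 or 1839.

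**Figure D5:**
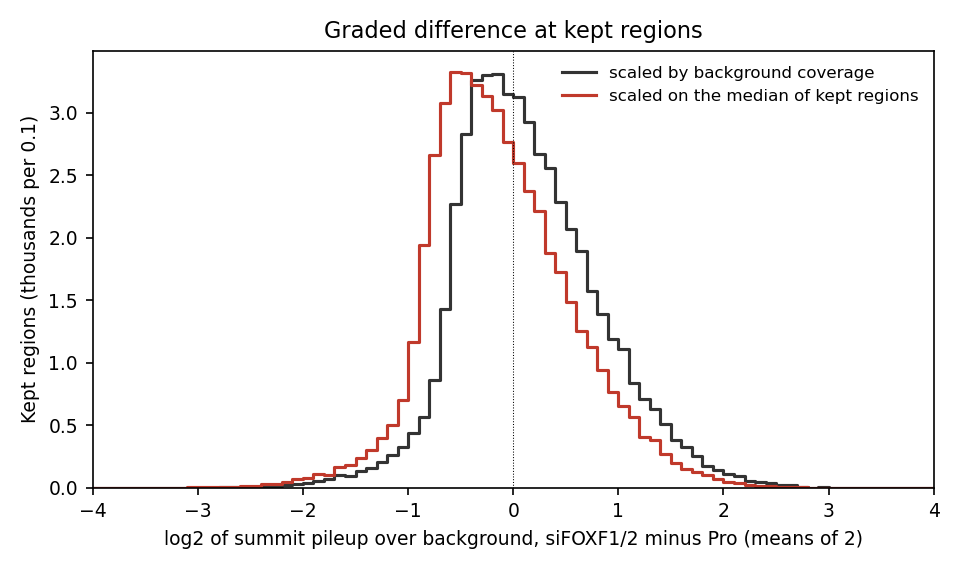
Distribution over the 50120 kept regions of the log2 difference in summit pileup, siFOXF1/2 minus Pro (mean of 2 libraries each), in bins of 0.1, scaled by background coverage or on the medians of kept regions. The median lies at 0.07 under the first scaling and at -0.19 under the second.

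In senescent cells with FOXF1/2 present, the raised and lowered regions took values between the groups compared. At raised regions the median summit was 53.6 and 53.0 times the background in siFOXF1/2, 31.2 to 41.2 in the 4 Sen libraries and 17.8 and 17.2 in Pro. JUN-family knockdown stood at 14.6 and 17.9 among the 73.2% and 74.2% of raised regions that its lists held. At lowered regions the medians were 17.4 and 19.2 in siFOXF1/2, 25.2 to 28.2 in Sen and 55.7 and 55.6 in Pro, and JUN-family knockdown stood at 21.4 and 25.4. The Sen lists held 83% to 95.6% of the lowered regions, and the JUN-family lists 92% and 92.1%. Their medians leave out the unlisted regions, which by itself can raise them. Raised and lowered regions were chosen on the siFOXF1/2 and Pro values, and only the Sen and JUN-family values were not used for it. Such a choice by itself favours values in between for libraries outside it, so the position of Sen is a description only.

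The region raised most was chr6:82755877-82756602, at 110 and 99.2 times the background in siFOXF1/2 against 9.18 and 9.10 in Pro, a ratio of at least 10.8 between any 2 libraries of the groups. Sen held it at 21.0 to 36.8, and JUN-family knockdown at 10.4 and 15.4. The regions chr8:128403272-128404068, chr8:16265435-16267213 and chr10:33281449-33282179 followed, with ratios of 9.95, 8.14 and 8.08. The first of these 3 was missing from both JUN-family lists and stood at 15.6 to 36.0 in Sen, below 95.7 and 91.4 in siFOXF1/2, whereas at the last Sen reached 43.6 to 71.6, below 74.2 and 84.1.

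Opened regions were spread over all chromosomes, from 17.4% of the regions on chromosome 19 to 27.9% on chromosome 5. The median 1 Mb window with any region held 12 opened ones, and 147 of 2567 windows held 0. The richest window, 30 to 31 Mb on chromosome 3, held 41 opened regions among 91, of which 18 had a peak in all 4 Sen lists, 13 in none, and 8 in both JUN-family lists. Windows at 12 to 13 Mb on chromosome 2, 29 to 30 Mb on chromosome 8 and 41 to 42 Mb on chromosome 7 followed with 38, 38 and 37 opened regions among 97, 102 and 97. Of the opened regions 31.6% had another opened region within 10 kb, against 49.3% for kept and 6.84% for closed regions with one of their own kind, classes that differ in number. The share for opened regions was 13.7% with equal list lengths and 42.9% without siFOXF1/2 replicate 2.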

How the data were processed

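ATAC-seq peak lists of 16 libraries were used, 1 deposited list per library. Whether the authors also called peaks on pooled replicates is not given in the sources used here. Bowtie2 2.3.4.1, SAMtools 1.9, deepTools 3.1.1, MACS2 2.1.1 and build hg19 are named in the submitters' processing notes without role or order. How reads were shifted for the transposase, how duplicates were treated and how peaks were called is not given in the sources used here. Each deposited list gives, per peak, the fold enrichment ratio at the summit, −log10 p-values and −log10 q-values, and a score, which was not used. The lowest deposited −log10 q was 4.00 to 4.10 in the 4 lists compared, so weaker peaks are not listed.

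Peaks overlapping by 1 bp or more were merged. Summit pileup and local background were recovered from fold, (pileup + 1) / (background + 1), and the Poisson p-value. The pileup came out whole for 100% of peaks within 0.002 in −log10 p, widened in proportion above 10. Genome-wide background coverage was the 1st percentile of local background, and a region's value is its highest summit pileup over that. The recovery was tested on simulated data. Groups came from titles and treatment labels. Read counts were not modelled. Peak numbers and single-end shares relative to kept regions were compared by exact permutation tests over libraries, other shares carry no test, and 2 libraries a group limit the precision. Intervals over regions would cover counting error only and are not printed.

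Named regions were the 8 opened and 8 closed with the highest lowest −log10 q, the 5 such opened regions in 0 and in 4 Sen lists, the 4 raised regions of highest ratio and the 4 windows richest in opened regions. The 5 in all 4 Sen lists were the first 5 of the 8 opened. Members, lists and rules were chosen with earlier results of these data known, and the fold bound took its present form after its values were seen. Planned gene, motif and marker look-ups need an hg19 genome or annotation, not used here; the gene table at hand is of another build. Replicate numbers do not pair libraries by the labels. Alternatives were a −log10 q of at least 5 or 20, equal list lengths, 50% overlap, 500 bp summit windows, chromosome X, other scalings and leaving out each replicate. Python 3.11.15, numpy 2.4.6, pandas 2.3.3 and scipy 1.17.1 were used.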

Additional observations from a re-analysis of the deposited data

Results flagged for a closer look

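At the eighth opened region, chr2:11411000-11411464, the Sen libraries stood at 42.4, 57.6, 41.5 and 41.3 times the background, and replicate 2, at 57.6, lay further from the other 3 than Dixon's test at the 95% level allows. It still lay below both siFOXF1/2 libraries, at 62.7 and 80.5. In all, 16 sets of 4 Sen values were tested (the named regions with a peak in all 4 Sen lists and the shares of opened, closed and kept regions) and 1 passed, while chance gives about 1 in 20.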

How the results depend on the processing

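The opened count was 11390 with equal list lengths, 15875 with the 2-fold bound and 10593 with the bound scaled on kept regions, and 34809 to 44684 with each replicate left out in turn. The closed count was 10751 with equal list lengths, 7711 between siFOXF1/2 replicate 2 and Pro replicate 2, 2049 with the bound, and 4945 to 5919 with each replicate left out. The share of opened regions in all 4 Sen lists was 58.0% at a −log10 q of at least 20, 57.5% with equal lengths, 52.2% with 50% overlap, 38.0% with summit windows, 49.7% with the bound, 53.7% and 45.2% with Sen replicates 1 and 2 or 3 and 4 only, and 29.6% to 42.8% with each replicate left out. The share in no Sen list was 13.6% at a −log10 q of at least 20, 13.5% with equal lengths, 18.2% with 50% overlap, 17.8% with the bound, 29.4% and 39.2% with these Sen pairs, and 22.2% to 36.1% with each replicate left out. The share in both JUN-family knockdown lists was 11.8% with the bound and 13.1% to 13.7% with 1 list left out. Raised regions numbered 1729 scaled on kept regions, 20797 with no minimum fold, and 4283 to 5833 with each replicate left out; lowered regions 1645, 16820, and 1080 to 1839. Regions above Sen numbered 377 scaled on their medians and 1085 to 1887 with each replicate left out, and those below 624 and 222 to 1351. Leaving out a library loosens each rule by construction, and a shorter list or a bound removes weak peaks; the cause was not tested otherwise. The kept count stayed within 1.5 times its value in each setting run, and the peak number ratio stayed above 1 in each. With replicate numbers as a block, the exact sign-flip test of peak numbers gave p = 0.5, the smallest 2 pairs allow; same-numbered siFOXF1/2 and Pro libraries deviated together across kept regions with a correlation of 0.195, a description over regions of 4 libraries. The floor behind the bounds and the settings on equal background, long regions, no minimum fold and scaling against Sen were chosen after seeing the data. Depth limits what weak peaks can show, since the 4 lists begin at 4.97 to 6.31 times the background.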

Other observations

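Merged regions longer than 5 kb went the other way from the narrow ones. There were 21, of which 14 were kept, 4 closed, 3 mixed and 0 opened. The longest peaks were 64998 and 39931 bp in Pro, against 12835 and 10980 bp in siFOXF1/2. A limit on merged length can therefore favour regions that are broad and high in Pro, so the direction in this set is a description only. At all 14 kept ones both siFOXF1/2 values lay below both Pro values, with a median ratio of 0.223 (0.106 to 0.378), the Sen mean lay between the groups at all 14, and all 4 Sen libraries did at 8. The longest, chr4:49093457-49158533, stood at 54.7 and 45.2 times the background in siFOXF1/2, 308.8 and 269.5 in Pro, 78.8 to 171 in Sen and 304 and 262 in JUN-family knockdown. Several of these regions lie beside centromeres, where hg19 is known to hold too few copies of repeats. The part of repeat copies in these values was not tested.

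The longest row of neighbouring opened regions was 12, over 212 kb at chr3:9055907-9268336, with the next longest at 8. Of the 12, 7 had a peak in no Sen list, 4 in 1 to 3 and 1 in all 4, and none had one in either JUN-family knockdown list. Their siFOXF1/2 values ran from 7.27 to 33.7 times the background. The 1 Mb window with the most closed regions, 10 to 11 Mb on chromosome 21, held 13 of them among 33 and 0 opened or kept ones. The part of repeat copies in this window was not tested either.

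The opened region chr1:569805-570077 lies in a known nuclear copy of mitochondrial DNA. Its siFOXF1/2 values were 42.9 and 36.9, no paired-end Sen or JUN-family knockdown list held it, and all 6 single-end lists did.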
